A study of Arabidopsis thaliana with 6 samples.

Results

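The 8 genes described here build or regulate the Casparian strip, and they were chosen by name, with earlier results of these data known: CASP1 (AT2G36100), CASP2 (AT3G11550), CASP4 (AT5G06200), CASP5 (AT5G15290), MYB36 (AT5G57620), ESB1 (AT2G28670), SGN3 (AT4G20140, also called GSO1) and RBOHF (AT1G64060). They are 8 of the 33977 gene IDs counted in each library. Messenger RNA was sequenced from whole Col-0 plants of Arabidopsis thaliana that were 10 days old, kept at 22 °C under days of 16 h light and 8 h dark. The 3 control (Mock) samples grew on half-strength MS, a standard mineral medium, and the 3 treated samples on that medium with 1.5 mM CsCl, the chloride of an alkali metal ion close to potassium. Both root and shoot markers were present, as the whole-plant label states, and all 8 genes were detected in all 6 libraries.

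The Casparian strip is a band of lignin in the walls around each endodermal cell of the root, which blocks the path of ions through the cell walls into the vascular tissue. CASP proteins form a platform in the plasma membrane under the future strip, and the transcription factor MYB36 switches on the CASP genes and other strip genes. The dirigent protein ESB1 and peroxidases act in the placing of lignin, the NADPH oxidase RBOHF supplies the reactive oxygen that the peroxidases use, and the receptor kinase SGN3 senses peptides from the vascular cylinder that report gaps in the strip.

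With CsCl, CASP1 and CASP2 were lower and none of the other 6 genes passed the test. CASP2 fell 1.38-fold and CASP1 1.22-fold. Among all 21005 genes tested, 1.32% were lower by the same rule (p under 0.05 in the quasi-likelihood test of edgeR after Benjamini-Hochberg adjustment over all of them), 0.843% were higher and 2.16% changed in either direction, against 2 of the 8 genes, which were not chosen blind to these results. All CsCl libraries lay below all control libraries for these 2 genes, as for 9.75% of all genes tested. The median log2 fold change was -0.19 over the 8 genes and -0.30 over the 4 CASP genes, against 0.0052 over all genes tested. The count was also 2 with RLE factors (background 1.39%), no filter on low counts (1.96%), a filter of 1 CPM in 3 libraries (1.35%), DESeq2 (1.75%), limma-voom (1.29%) and halved counts (1.49%). It was 1, which was CASP2, when any library was left out (background 1.55%, 1.18% and 0.914% without control replicates 1, 2 and 3, and 0.956%, 0.425% and 0.628% without CsCl replicates 1, 2 and 3) and with total counts only as the scaling (0.857%). In whole plants, fewer endodermal cells and less RNA per cell cannot be told apart.

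In TAIR10.1 the CASP genes lie on chromosomes 2, 3 and 5, each with 3 exons. CASP1 spans chr2:15159591-15160799 (minus strand), CASP2 chr3:3638178-3639348 (plus), CASP4 chr5:1877134-1878324 (plus) and CASP5 chr5:4967011-4968092 (plus). MYB36 spans chr5:23334767-23336632 (plus), ESB1 chr2:12300265-12302358 (minus), SGN3 chr4:10883921-10888270 (plus) and RBOHF chr1:23769774-23776984 (plus). Of the exon bases, 49 of CASP1 and 4 of CASP5 are shared with a gene of the other strand.

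The 4 CASP genes are paralogs, so their coding sequences were compared to see how far reads could be shared. CASP2 and CASP4 are the closest pair, with 80.6% identity over 609 aligned coding bases, and the other pairs shared from 55.4% to 65.7%. No pair had an identical run longer than 20 bases. Only coding bases were compared, not the untranslated parts of the exons. The most alike 100-base windows of CASP2 and CASP4 are shown because, among coding bases, a read could most easily be placed at the wrong gene there. They lie at coding bases 175 to 274 of CASP2 (chromosome 3) and 169 to 268 of CASP4 (chromosome 5), read from RefSeq's TAIR10.1 genome, and capitals mark the 12 bases that differ.
CASP2: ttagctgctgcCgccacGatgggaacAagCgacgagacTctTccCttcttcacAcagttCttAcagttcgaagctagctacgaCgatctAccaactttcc
CASP4: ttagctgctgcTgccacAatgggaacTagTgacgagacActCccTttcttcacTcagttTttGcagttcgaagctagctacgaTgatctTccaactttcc
The differences are not evenly spread. The longest identical run of the pair, 20 bases, lies within this window, and most of the differing bases lie before it.

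CASP1, the most abundant of the 4, stood at 53.48, 50.03 and 49.30 CPM (read counts scaled to the library total and its TMM factor) in the control libraries and at 44.0, 38.2 and 43.1 CPM with CsCl. The groups did not overlap, and CsCl replicate 2 was the lowest. Its log2 fold change was -0.29 ± 0.069 (SE; adjusted p = 0.0468 in edgeR). This call was lost when any 1 of the 6 libraries was left out (edgeR adjusted p from 0.0625 without CsCl replicate 1 to 0.247 without CsCl replicate 2) and when libraries were scaled by total counts only (0.125); the log2 fold change stayed between -0.33 and -0.23.

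CASP2 had the firmest difference. It stood at 27.4, 26.1 and 24.0 CPM in controls and 19.6, 18.0 and 18.5 CPM with CsCl. Every CsCl library lay below every control library, with a gap between the groups larger than the range within either. The log2 fold change was -0.47 ± 0.078 (SE; adjusted p = 0.00537 in edgeR), and the call held under all 14 alternatives, with an adjusted p of 0.0439 at most.

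CASP4 and CASP5 had lower means with CsCl, but their groups overlapped. CASP4 stood at 7.04, 7.61 and 7.58 CPM in controls and 7.32, 4.81 and 5.81 CPM with CsCl; CsCl replicate 1 was within the control range and CsCl replicate 2 was the lowest. Its log2 fold change was -0.31 ± 0.15 (SE; adjusted p = 0.351 in edgeR). CASP5 stood at 9.81, 6.92 and 7.58 CPM in controls and 7.72, 6.64 and 6.36 CPM with CsCl, with control replicate 1 above the rest, and its log2 fold change was -0.23 ± 0.14 (SE; adjusted p = 0.498 in edgeR). These genes had 168 to 322 counts per library, against 1334 to 1950 for CASP1, and larger SEs.

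**Figure D1:**
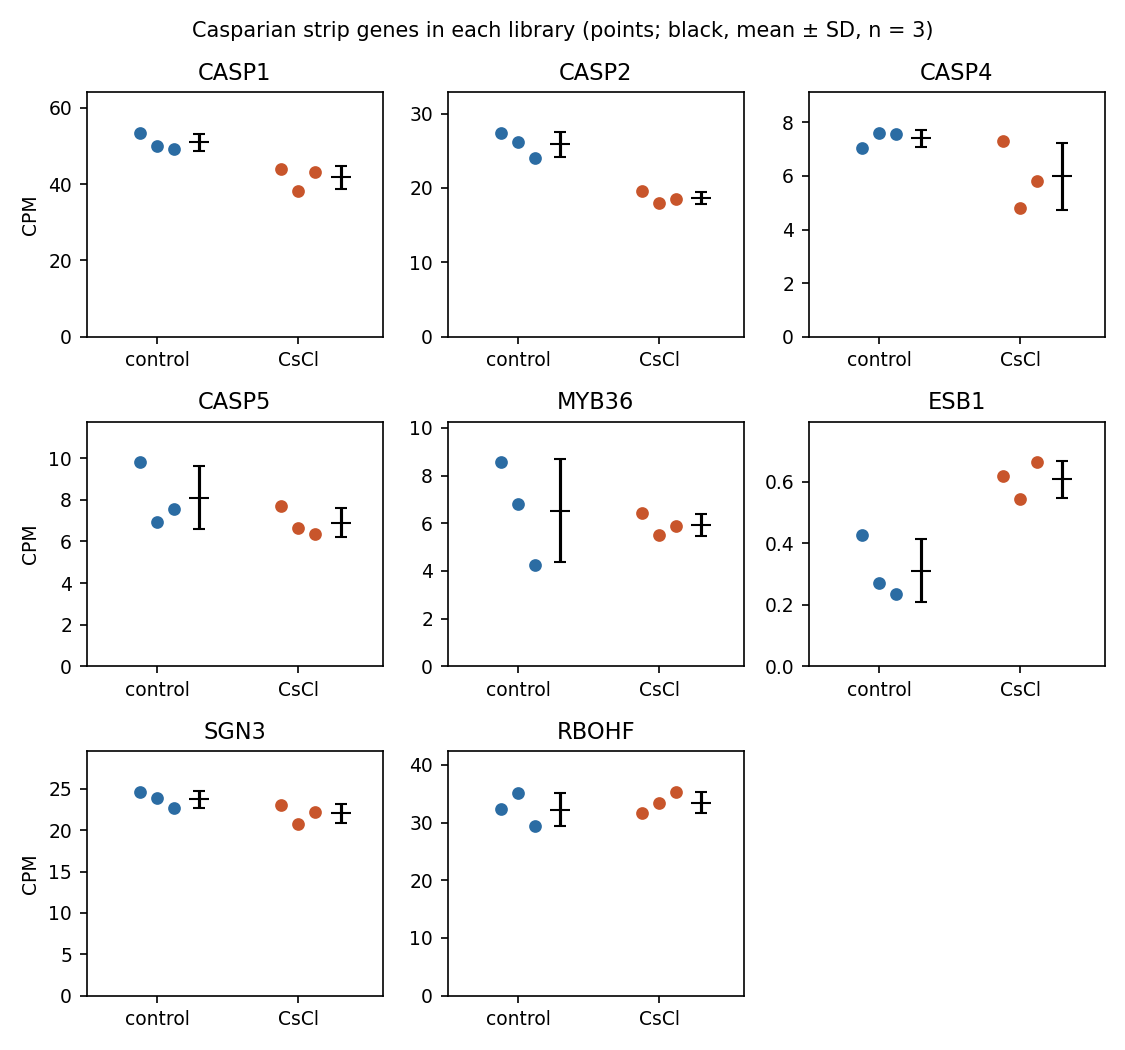
CPM (linear axis from 0, a scale of its own in each panel) of the 8 Casparian strip genes in the 3 control and 3 CsCl libraries; points are libraries in replicate order and black bars the mean ± SD. CASP1 and CASP2 separate with CsCl below control, ESB1 separates in the other direction at under 1 CPM, and the other 5 genes overlap.

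MYB36, the transcription factor above the CASP genes, did not pass the test. It stood at 8.56, 6.80 and 4.23 CPM in controls and 6.42, 5.50 and 5.88 CPM with CsCl. All 3 CsCl libraries lay inside the control range. The log2 fold change was -0.14 ± 0.20 (SE; adjusted p = 0.808 in edgeR), and it turned to 0.10 without control replicate 1 and was -0.38 without control replicate 3. These values show neither a difference in MYB36 nor that its level was alike. SHR and SCR, the GRAS transcription factors that specify the endodermis and lie above MYB36, stood at 19.8 ± 3.41 and 55.4 ± 0.533 CPM in controls and 22.7 ± 1.37 and 53.5 ± 2.199 CPM with CsCl (mean ± SD, n = 3 per group), and neither passed the test (edgeR adjusted p = 0.445 and 0.753). Both were named after their values were seen.

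ESB1 was counted at under 1 CPM, with 14, 9 and 8 counts in controls and 20, 19 and 30 in CsCl plants. All CsCl values were above all control values (0.311 ± 0.102 against 0.608 ± 0.0598 CPM, mean ± SD, n = 3 per group), which was also so for 10.0% of all genes tested. The log2 fold change of 0.97 ± 0.41 was not past the test (SE; adjusted p = 0.289 in edgeR). In TAIR10.1 exons of AT2G28671, on the opposite strand, cover 1459 of the 1731 exon bases of ESB1, or 84.3%, and AT2G28671 itself had 0 to 12 counts. Low counts went with such overlaps across the files. Of 638 protein-coding genes with at least 80% of their exon bases covered by exons of the other strand, 1.25% reached 1 CPM, against 69.2% of 23211 genes with under 5% covered. Whether reads in such overlaps were left uncounted was not tested, since the strand setting is not given in the sources used here, and neither the level of ESB1 nor its difference can be read from these counts.

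SGN3, the receptor kinase, stood at 24.6, 23.8 and 22.7 CPM in controls and 23.1, 20.8 and 22.2 CPM with CsCl. The groups overlapped, and the log2 fold change was -0.11 ± 0.074 (SE; adjusted p = 0.569 in edgeR). Its exons share 337 bases with those of AT4G20150 on the opposite strand, 7.88% of its exon length. GSO2 (AT5G44700), its closest relative, had 3.78 ± 0.455 CPM in controls and 2.89 ± 0.304 with CsCl (mean ± SD, n = 3 per group; edgeR adjusted p = 0.32), named after its values were seen.

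RBOHF stood at 32.3, 35.1 and 29.3 CPM in controls and 31.7, 33.3 and 35.3 CPM with CsCl, and the groups overlapped. The log2 fold change was 0.055 ± 0.077 (SE; adjusted p = 0.801 in edgeR). Its sign turned without control replicate 3, to -0.012. Of the 9 other NADPH oxidase genes listed, 7 were tested and 1 was lower, against 1.32% of all 21005 genes tested. The lower gene was AT1G19230, which RefSeq annotates as a riboflavin synthase-like superfamily protein. It fell from 17.4 ± 1.02 to 12.3 ± 0.195 CPM (mean ± SD, n = 3 per group; -0.50 ± 0.084 on the log2 scale ± SE; adjusted p = 0.00614 in edgeR), a call kept under all 14 alternatives. The most abundant of the list, RBOHD (AT5G47910), the oxidase of immune responses, stood at 54.7 ± 1.18 and 56.0 ± 1.18 CPM, and RBOHC (AT5G51060), which acts in root hair growth, at 17.1 ± 2.98 and 17.4 ± 0.824 CPM; neither passed.

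Per length of exon, which allows levels to be compared between genes, the 8 genes spanned a wide range. In controls CASP1 stood at 56.4 ± 2.47 CPM per kilobase and CASP2 at 25.97 ± 1.75 (mean ± SD, n = 3), and their ranges did not touch each other or those of the other genes. CASP5 at 9.07 ± 1.70, RBOHF at 8.07 ± 0.719 and CASP4 at 7.29 ± 0.318 followed, and each overlapped the next. SGN3 at 5.55 ± 0.231 and MYB36 at 4.72 ± 1.57 came last of the genes that can be ranked, also overlapping each other. With CsCl the first 2 places were the same, at 46.2 ± 3.44 and 18.8 ± 0.806 CPM per kilobase, and RBOHF at 8.38 ± 0.461 stood above CASP5 at 7.74 ± 0.80, with overlapping ranges. CASP1 made up 57.1% ± 0.563 of the summed level per kilobase of these 4 CASP genes in controls and 58.8% ± 1.32 with CsCl, and CASP2 26.3% ± 0.83 and 23.9% ± 0.893 (mean ± SD, n = 3 per group). These shares were not tested.

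**Figure D2:**
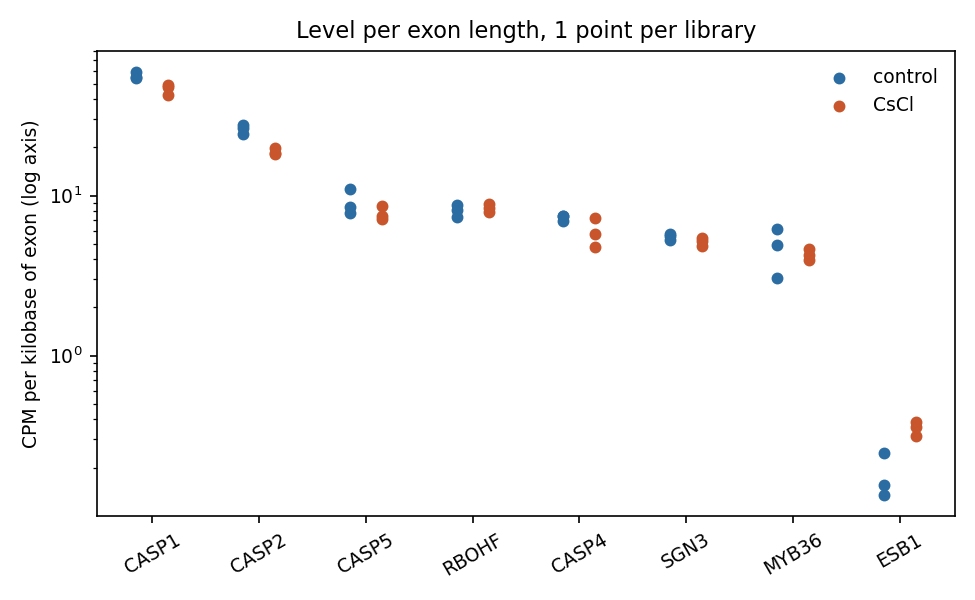
CPM per kilobase of exon (log axis) for each of the 8 genes, 1 point per library, ordered by the control mean. CASP1 leads at 56.4 in controls, CASP5, RBOHF and CASP4 overlap, and ESB1 lies lowest, with 84.3% of its exon bases shared with a gene of the other strand.

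Other genes of the strip were examined as a list of 26, of which 25 were tested: 5 were lower, 1 was higher and 19 did not pass. Their median log2 fold change was -0.11. Among all 21005 genes tested, 1.32% were lower and 0.843% higher, and the list was not chosen blind to these results. The 5 lower genes were peroxidases and dirigent-like proteins, but other genes of both kinds in the list did not pass. The peroxidases AT1G05260, AT1G44970 and AT4G11290 had log2 fold changes of -0.11, -0.33 and 0.046 (edgeR adjusted p = 0.458, 0.131 and 0.884). The dirigent-like AT3G24020 was at 0.084 (0.928), with 86.8% of its exon bases shared with the other strand. These other genes were named after their values were seen. PER72 (AT5G66390), a peroxidase with a role in lignin formation, fell from 62.1 ± 3.67 to 45.3 ± 1.32 CPM (mean ± SD, n = 3 per group; -0.46 ± 0.063 on the log2 scale ± SE; adjusted p = 0.00143 in edgeR), a call kept under all 14 alternatives. The dirigent-like AT4G13580 fell from 16.5 ± 1.61 to 10.7 ± 1.25 CPM (-0.62 ± 0.11 on the log2 scale ± SE; adjusted p = 0.00689 in edgeR), also under all 14, although 36.4% of its exon bases are shared with the other strand. The remaining 3 of the 5 lower genes were named after their values were seen.

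PER64 (AT5G42180), the peroxidase that sits at the strip itself and depends on MYB36, stood at 42.0, 40.4 and 33.9 CPM in controls and 29.7, 26.5 and 27.6 CPM with CsCl. Its groups did not overlap, and it fell by 0.47 ± 0.083 on the log2 scale (SE; adjusted p = 0.00795 in edgeR), a call lost without CsCl replicate 2 (0.0627). The dirigent-like AT3G55230 fell from 56.3 ± 2.35 to 41.9 ± 6.76 CPM and AT2G39430 from 28.1 ± 2.31 to 21.2 ± 1.16 CPM. AT3G55230 lost its call without control replicate 2 (edgeR adjusted p = 0.066), CsCl replicate 2 (0.161) or CsCl replicate 3 (0.139) and with total counts only (0.0538), and AT2G39430 without control replicate 2 (0.0582), CsCl replicate 1 (0.0582) or CsCl replicate 2 (0.113) and with total counts only (0.0539).

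UCC2 (AT2G44790), a uclacyanin, that is a copper-binding cell wall protein, was the 1 gene that rose. It stood at 70.3, 70.9 and 68.5 CPM in controls and 91.4, 84.8 and 81.4 CPM with CsCl (0.30 ± 0.060 on the log2 scale ± SE; adjusted p = 0.0174 in edgeR). The call was lost without control replicate 3 (0.0561), CsCl replicate 1 (0.0872) or CsCl replicate 2 (0.0861). Its relative UCC1 (AT2G32300) pointed the other way, at 32.0 ± 2.75 and 26.02 ± 1.31 CPM, and was not past the test (edgeR adjusted p = 0.0641); it was named after its values were seen. EXO70A1 (AT5G03540), an exocyst subunit that positions the CASP platform, stood at 75.8 ± 1.98 and 71.9 ± 2.57 CPM (edgeR adjusted p = 0.595).

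**Figure D3:**
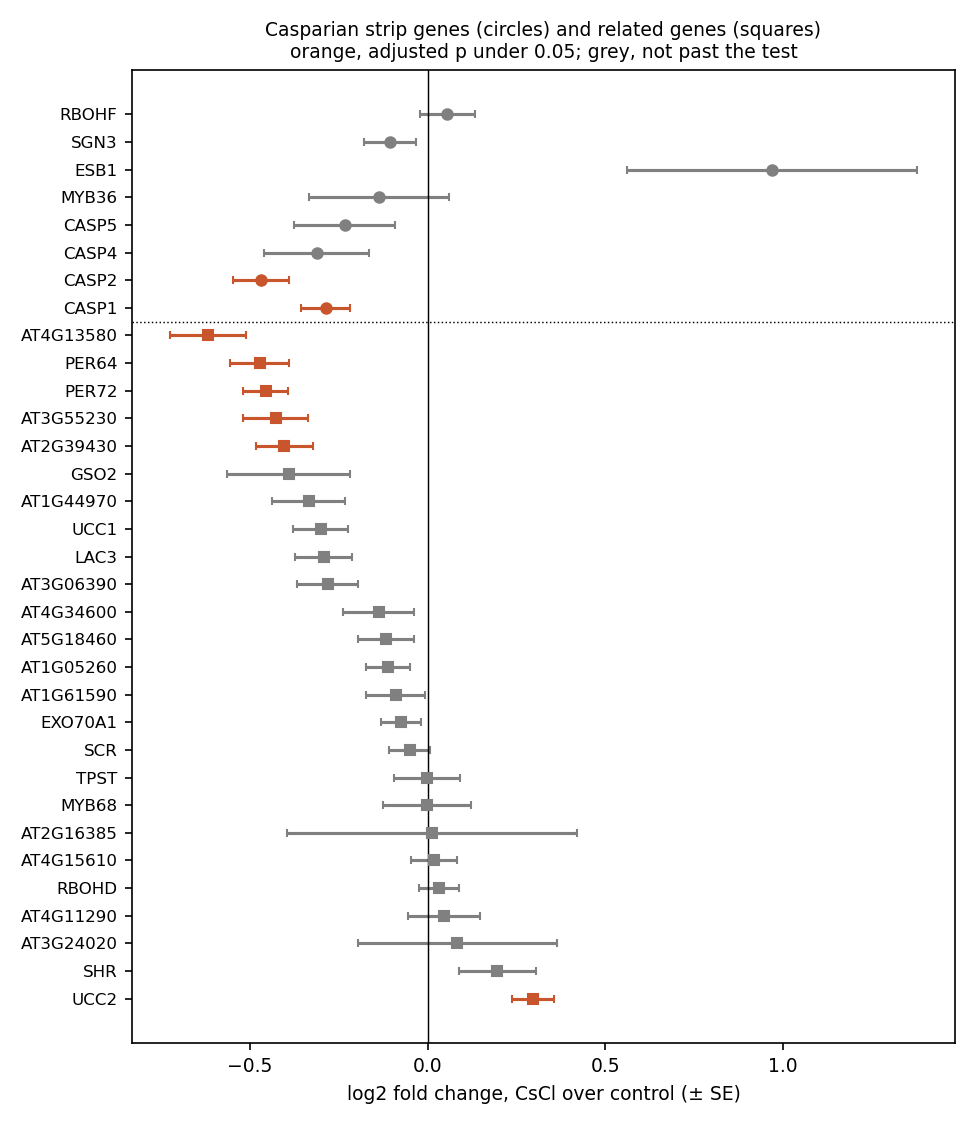
Log2 fold change, CsCl over control, with its SE, for the 8 Casparian strip genes (circles, above the dotted line) and the 25 tested genes of the wider strip list (squares); orange marks an adjusted p under 0.05. The called genes lie between -0.62 and -0.29, except UCC2 at 0.30; ESB1, at 0.97, has the widest SE among the circles.

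The precursors and the second barrier of the endodermis were described from lists of their own. Of 12 genes that make the monolignol precursors of lignin, 1 was lower and none higher, against 1.32% and 0.843% of all 21005 genes tested. The lower gene was CCR1 (AT1G15950), cinnamoyl-CoA reductase, which fell from 56.4 ± 2.55 to 45.0 ± 1.88 CPM (edgeR adjusted p = 0.0123). It lost the call without CsCl replicate 3 (0.0785), and 77.2% of its exon bases are shared with the other strand. The methyltransferase gene CCoAOMT1 (AT4G34050) and the phenylalanine ammonia-lyase gene PAL2 (AT3G53260), the most abundant of the 12, stood at 353 ± 21.9 and 341 ± 34.2 CPM in controls and 322 ± 7.04 and 305.0 ± 8.21 with CsCl, and neither passed. Over the 12 genes the median change was -0.087 on the log2 scale.

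Of 16 genes of suberin, the waxy layer that endodermal cells add later, 15 were tested, 4 were lower and none higher, and the median change was -0.30 on the log2 scale. The P450 gene CYP86B1 (AT5G23190) fell from 22.5 ± 2.65 to 15.6 ± 2.06 CPM and the feruloyl transferase gene ASFT (AT5G41040) from 53.9 ± 3.41 to 43.6 ± 2.56 CPM, with log2 fold changes of -0.52 and -0.30, while KCS20 (AT5G43760), the most abundant, stood at 198 ± 13.9 and 187 ± 13.9. The other 2 lower genes, named after their values were seen, were GPAT5 (AT3G11430) and ABCG6 (AT5G13580), at log2 fold changes of -0.45 and -0.40 (adjusted p = 0.0495 and 0.0469 in edgeR). Both lost their calls when any library but control replicate 2 was left out (adjusted p from 0.118 to 0.19 for GPAT5 and from 0.0861 to 0.243 for ABCG6), with total counts only (0.0914 and 0.097), with the 1 CPM filter (0.053 and 0.0525) and in limma-voom (0.0632 and 0.0564). CYP86B1 lost its call without control replicate 3 (adjusted p = 0.0536 in edgeR), CsCl replicate 2 (0.121) or CsCl replicate 3 (0.0684), and ASFT without control replicate 1 (0.0754) or 3 (0.0813), CsCl replicate 1 (0.108) or CsCl replicate 2 (0.198) and with total counts only (0.0895). The count of 4 was 0 without control replicate 3 or CsCl replicate 2, 1 without control replicate 1 or CsCl replicate 1, 2 without CsCl replicate 3, and 1 with total counts only. It was 2 with the 1 CPM filter or in limma-voom, 5 with RLE factors or without control replicate 2, and 6 with no filter on low counts. Beside the 4 of 15, 1.32% of all 21005 genes tested were lower.

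Markers of other root tissues were set beside the CASP genes. The list held 20 markers of cortex, epidermis, root hair, stele with its phloem and xylem, root cap and meristem or of the root in general. All were detected and tested, and their median change was -0.072 on the log2 scale, against 0.0052 over all genes tested. Of the 20, 1 was lower and none higher, against 1.32% and 0.843% of all 21005 genes tested. The lower one was PYK10 (AT3G09260), a beta-glucosidase of ER bodies, at 5788 ± 171 and 4462 ± 299 CPM, which lost its call without CsCl replicate 2 (edgeR adjusted p = 0.0872). The count of 1 lower marker was then 0, and it was 2 without control replicate 1 or with no filter on low counts. The cortical protease gene AT1G09750 stood at 143.0 ± 10.2 and 136.1 ± 10.3 CPM. The summed level of all 20 markers, most of it PYK10, ran from 6054 to 6358 CPM in controls and from 4683 to 5195 with CsCl, 78.4% of the control mean, without overlap. The sum of the 19 markers besides PYK10 ran from 417 to 450 CPM in controls and from 388 to 423 with CsCl, 95.3% of the control mean, with overlapping groups.

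The summed level of CASP1, CASP2, CASP4 and CASP5 ran from 88.4 to 97.7 CPM in controls and from 67.7 to 78.6 with CsCl. The groups did not overlap, and the CsCl mean was 79.5% of the control mean. Most of the sum was CASP1 and CASP2, the called genes, at control means of 50.9 and 25.8 CPM of 92.3. The sum therefore adds little to those calls, and CASP4 and CASP5 each overlapped between groups. The share of 79.5% is close to that of all 20 root markers and below that of the 19 besides PYK10. Neither difference was tested. SHR and SCR together stood at 101% of their control mean. The 9 shoot markers, led by CAB1 (AT1G29930), a chlorophyll-binding antenna protein gene, and the Rubisco small subunit gene RBCS1A (AT1G67090), stood at 92.8%. Of these 9, 0 passed the test, against 2.16% of all 21005 genes tested in either direction. An unadjusted p under 0.05 in edgeR was found for 1 of the 9, against 14.4% of all genes tested. The sum of the shoot markers ran from 33290 to 37460 CPM in controls and from 31770 to 33490 with CsCl, with overlapping groups. The ratio of the CASP sum to the sum of the 19 root markers was 0.216 ± 0.0165 in controls and 0.180 ± 0.0214 with CsCl (mean ± SD, n = 3 per group). The groups overlapped, with CsCl replicate 1 at 0.203 and control replicate 2 at 0.201. The part of root tissue makeup in the CASP values was not tested beyond these sums.

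**Figure D4:**
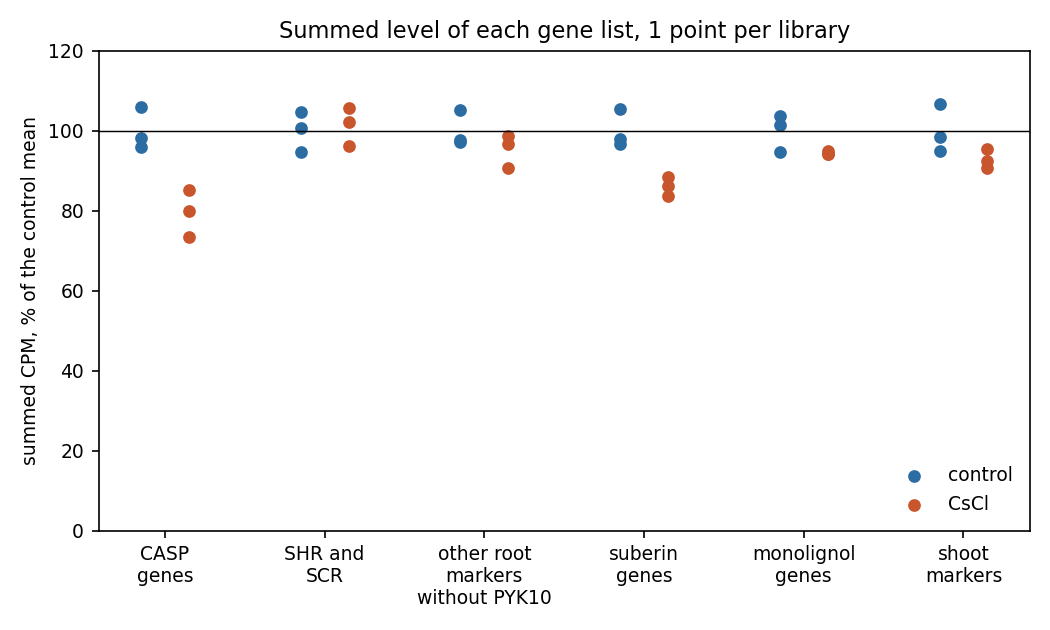
Summed CPM of each gene list in each library as a percentage of that list's control mean (axis from 0; line at 100%), control in blue and CsCl in orange. The sum of the 4 CASP genes, most of it CASP1 and CASP2, stands at 79.5% with CsCl and the suberin genes at 86.1%. The root markers stand at 95.3% without PYK10 (with it, not plotted, at 78.4%), and SHR with SCR at 101%.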

How the data were processed

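The authors deposited 1 table per sample of raw read counts per gene. Per the submitters' processing notes, FastQC, STAR, featureCounts and edgeR were used on TAIR10. Versions, annotation, strand setting and handling of multiply mapped reads were not given in the sources used here. Library totals ran from 32075069 to 44108369 counts. Of values from 1 to 50, 65.5% to 73.4% were even; both mates of a pair may have been counted, so counts were also halved. No label ties samples to separate sowings, and p-values then reflect the spread among samples that may be technical replicates. No library was a copy of another (chi-square between replicates per gene 6.24 to 12.7).

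One edgeR 4.0.16 quasi-likelihood fit covered all genes kept by filterByExpr, with TMM factors and group as the only term (R 4.3.3; threshold 0.05 after Benjamini-Hochberg adjustment). The same fit was run on simulated counts, in which every change set was larger than those of CASP1 and CASP2. Changes of their size were therefore not covered. Alternatives were RLE factors, total counts only, no filter, 1 CPM in 3 libraries, DESeq2 1.42.0, limma-voom (limma 3.58.1), a replicate block, halved counts and leaving out each library. All 32548 chromosomal IDs matched RefSeq's TAIR10.1, used for names, exon lengths, overlaps and sequences; MAFFT 7.526 aligned coding sequences. The members and lists were chosen with earlier results of these data known. Besides the 8 genes, the text names from every list the best 2 by adjusted p in each direction and the most abundant 2. One member, 1 monolignol gene and the nearest profiles are not reported here. Loci without a RefSeq symbol are given by ID.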

Additional observations from a re-analysis of the deposited data

How the results depend on the processing

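The direction of 6 of the 8 Casparian strip genes was the same under every alternative run; without 1 library MYB36 ran from -0.38 to 0.10 (without control replicate 1) and RBOHF from -0.012 (without control replicate 3) to 0.12. Of the 8 genes, 2 were lower, and this count was 1 with total counts only, 1 in the fit blocked by replicate number and 1 when any library was left out; none was higher in any of these fits. Scaling by total counts only shifted all fold changes by 0.039 (median, log2) and gave 180 lower genes in place of 277, so that 52.4% of all calls were higher in place of 39.0%; it left 3 of the wider strip list and 1 suberin gene lower. No filter on low counts gave 518 lower and 301 higher genes and 8 lower in the wider strip list. DESeq2 gave 2 lower monolignol genes; limma-voom and the 1 CPM filter each gave 2 lower suberin genes. Leaving out 1 library gave 90 to 330 lower and 89 to 231 higher genes, and for the lists 2 to 7 lower and 0 to 1 higher (wider strip), 0 to 1 lower (monolignol) and 0 to 5 lower (suberin). The cause was not tested. Deviations of same-numbered samples from their group means were weakly correlated (-0.0774, 0.0389 and -0.00956), and the control 1 sample correlated best with another number (0.132). With 3 samples per group, these values cannot show whether the replicate numbers pair the samples. With the block 210 genes were lower (1.0% of those tested) and 146 higher; CASP1 (adjusted p = 0.0662 in edgeR), GPAT5 (0.0924) and PYK10 (0.0556) lost their calls, which left 0 root markers lower, and CASP2 kept its call. ESB1 could not be tested under the 1 CPM filter or with halved counts. ESB1 had the fewest counts of the 8 genes (8 to 30), and the part of depth in this was not tested.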
